A study of Mus musculus and Rattus norvegicus with 33 samples.

Results

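The proteasome is the barrel-shaped protease that breaks down proteins marked with ubiquitin, and 41 genes for its subunits, activators and assembly chaperones were followed in the tibialis anterior, a muscle of the shin, of trained mice and rats. The members were the symbols in both tables that start with Psma, Psmb, Psmc, Psmd or Psme followed by a number and that reached 1 CPM (reads of a gene scaled to a common library total) in at least 2 libraries of each species. This gave 41 of the 11460 symbols found in both tables, which listed 21322 symbols in mice and 12411 in rats. They comprised 14 core genes (Psma and Psmb), 3 immunoproteasome genes (Psmb8, Psmb9 and Psmb10), 6 base genes (Psmc), 14 genes of the Psmd series, called lid here, and 4 activator genes (Psme). The lid class as drawn by symbol also held Psmd1, Psmd2 and Psmd4, which belong to the base, and the base-assembly chaperones Psmd5, Psmd9 and Psmd10. The rule used levels and no contrast between groups, and since its minimum is also the filter of the tests, all 41 members were tested in both species. Psma8, which was in the mouse table only, was not a member.

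In a proteasome, the core barrel of alpha (Psma) and beta (Psmb) rings holds the catalytic sites, and the regulatory particle, with its ATPase base and its lid, binds ubiquitin-tagged proteins, removes the ubiquitin, unfolds them and threads them in. In immune cells and under interferon, Psmb9, Psmb10 and Psmb8 can take the places of the catalytic subunits Psmb6, Psmb7 and Psmb5. In skeletal muscle the ubiquitin-proteasome system removes damaged and surplus fibre proteins, and its genes are known for their rise in muscle wasting. Transcription of the subunit genes is driven in many cells by Nfe2l1, which pairs with small Maf proteins on antioxidant response elements.

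All animals were wild-type (WT) mice and rats. Training was given to the left leg by implanted wireless nerve stimulators, and the legs carry the codes of their labels, TAL for left and TAR for right, with the animal number. Mice had training by nerve stimulation for 2 days (n = 2), 10 days (n = 3) or more than 17 days (n = 3), and 9 contralateral mouse legs served as controls, 1 of them without an analysed left leg. Rats had training for 30 days, daily (n = 2) or every 3 days (n = 3), or sham surgery (n = 3), and 8 contralateral rat legs served as controls. Trained legs were sampled 1 hour after exercise, while no hour was given for sham and contralateral legs. The mice had no sham group, so that surgery and body side cannot be told apart from training in them. In bulk muscle, fewer cells of a type and less RNA per cell cannot be told apart.

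Skeletal muscle fibre markers summed to 110825 to 183137 CPM in mouse legs and 163721 to 272625 CPM in rat legs, against at most 2.25 and 1.12 CPM for lymphocyte markers, and no lymphocyte marker passed the filter. The 10 fibre markers were Acta1, Ckm, Myh4, Myh1, Myh2, Tnnt3, Tnni2, Atp2a1, Mylpf and Pvalb. Some were called in trained legs, while their sums overlapped with those of contralateral legs except in daily rats. They summed to 163721 and 166703 CPM in daily rat legs, below the 230683 to 272625 CPM of sham legs and the 203915 to 245811 CPM of contralateral legs, with 4 of 10 called lower and 1 higher against each. Every-3-days rat legs had 189859 to 224777 CPM, with 1 of 10 called lower and 1 higher against each. Of all genes, 176 were called lower and 514 higher in every-3-days against contralateral legs, and 72 and 368 against sham legs. In mice 3 of 10 were called lower after more than 17 days, where they summed to 110825 to 124306 CPM, against 119356 to 183137 CPM in contralateral legs, 1 was called lower and 1 higher after 10 days, and 0 were called after 2 days. Of the 13647 genes tested in mice, 2.48% were called lower after more than 17 days, and 1.92% lower and 3.61% higher after 10 days. The part of the fibre markers in the proteasome results was not tested. Estimated depth was 26.5 to 43.1 M reads in mice and 4.87 to 28.0 M reads in rats, with the shallowest library in contralateral rat leg TAR299. Macrophage markers summed to higher medians in the trained mouse groups than in contralateral legs and are given beside the 2-day and interferon results. No 2 libraries were identical.

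Promoters of the members that the results turn on are shown here because Psmd11 and Psmd14 kept their call under every alternative tried after 2 days of training, and Psmb5 and Psmb6 encode catalytic subunits and hold an antioxidant response element. The windows run from 250 bases before to 50 bases after the gene's start in RefSeq on mouse build GRCm38.p6, 5′ to 3′ on the gene's strand, and lie at chr11:80428365-80428664 (plus strand) for Psmd11, chr2:61711444-61711743 (plus strand) for Psmd14, chr14:54617946-54618245 (minus strand) for Psmb5 and chr11:70525107-70525406 (plus strand) for Psmb6. Capitals mark the antioxidant response element, searched as TGACNNNGC on both strands.
Psmd11: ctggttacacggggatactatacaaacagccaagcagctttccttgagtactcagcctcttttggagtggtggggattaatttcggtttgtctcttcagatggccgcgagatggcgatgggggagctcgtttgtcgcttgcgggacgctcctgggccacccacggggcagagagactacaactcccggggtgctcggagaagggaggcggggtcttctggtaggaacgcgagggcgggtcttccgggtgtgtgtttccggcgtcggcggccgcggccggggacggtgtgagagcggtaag
Psmd14: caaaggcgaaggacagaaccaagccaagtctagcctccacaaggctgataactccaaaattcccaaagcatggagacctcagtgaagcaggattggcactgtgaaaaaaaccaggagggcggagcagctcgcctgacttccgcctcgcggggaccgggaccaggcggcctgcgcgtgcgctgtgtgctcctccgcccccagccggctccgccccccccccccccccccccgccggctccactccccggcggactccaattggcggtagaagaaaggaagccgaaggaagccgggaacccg
Psmb5: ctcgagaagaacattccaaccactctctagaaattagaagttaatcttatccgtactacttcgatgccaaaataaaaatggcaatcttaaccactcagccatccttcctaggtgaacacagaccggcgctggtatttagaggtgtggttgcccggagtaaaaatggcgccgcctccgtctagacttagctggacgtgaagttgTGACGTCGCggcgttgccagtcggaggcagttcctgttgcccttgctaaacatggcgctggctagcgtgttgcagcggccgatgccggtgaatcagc
Psmb6: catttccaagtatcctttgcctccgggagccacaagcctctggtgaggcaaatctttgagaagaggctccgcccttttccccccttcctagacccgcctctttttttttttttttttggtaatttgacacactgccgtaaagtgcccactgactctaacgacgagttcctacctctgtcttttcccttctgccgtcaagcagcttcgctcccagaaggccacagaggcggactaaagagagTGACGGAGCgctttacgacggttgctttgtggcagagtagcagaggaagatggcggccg
The element started 47 bases before the gene's start in Psmb5 and 9 bases before it in Psmb6, and the Psmd11 and Psmd14 windows held none. The letters CCAAT, searched on both strands, were found 3 times in the Psmd14 window, with 2 of these overlapping on opposite strands, and in no window of the other 3 genes.

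RefSeq promoters were matched for 35 of the 41 members, without Psmb1, Psmb2, Psmb7, Psmc3, Psmd3 and Psmd7. The antioxidant response element was in 6 of these 35 (17.1%), namely Psmb5, Psmb6, Psmc6, Psmd9, Psmd12 and Psme4, beside 14.0% of 27025 genes with a promoter. CCAAT was in 13 of the 35 members (37.1%), beside 41.1% of all genes with a promoter. These matches describe letters in a window and not sites in use.

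Levels in contralateral legs were set against each other per kilobase of transcript. Psmb7, the trypsin-like catalytic subunit, had the highest level of the 41 in both species, at 124 ± 6.87 CPM per kilobase in mice (SD, n = 9) and 181 ± 11.1 in rats (SD, n = 8). In mice, the core genes lay between 8.41 and 124 CPM per kilobase (median 42.3), the base genes between 27.0 and 84.2 (median 53.5) and the lid genes between 3.04 and 82.7 (median 39.1). The immunoproteasome genes lay between 1.42 and 5.28 CPM per kilobase in mice and between 2.31 and 7.63 in rats. Psmb9, the immunoproteasome form of the caspase-like subunit, was the lowest of the 41 in mice, at 1.42 ± 0.50 CPM per kilobase (SD, n = 9). Psme2, a subunit of the interferon-inducible activator ring, was the lowest in rats, at 1.43 ± 0.46 (SD, n = 8). The 3 immunoproteasome genes ranked 36, 40 and 41 of the 41 in mice and 38, 39 and 40 in rats.

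After 2 days of training, genes of the core, base and lid were higher in trained mouse legs than in contralateral legs. Limma called 25 of the 41 members higher and 0 lower at an adjusted p under 0.05, where 7.32% of the 13647 genes tested were called higher and 2.4% lower. The median log2 difference was 0.51 over the 41 members and 0.11 over all genes tested. Of the 41 log2 differences, 40 were above 0, the exception being Psme4. In 22 of the 41 members the 2 trained legs lay above all 9 contralateral legs, which held for 10.1% of all genes. The classes differed in count, with 12 of 14 core, 4 of 6 base and 9 of 14 lid genes called, against 0 of 3 immunoproteasome and 0 of 4 activator genes; whether the classes differ from each other was not tested. With Psmd1, Psmd2 and Psmd4 counted in the base and the chaperones apart, 5 of 9 base genes, 7 of 8 lid genes and 1 of 3 chaperones were called. The counts moved with the mouse left out, in the members and in all genes. Without leg TAL344, 2 of the 41 members were called, Psmd11 and Psmd14, and 1.19% of all genes were called higher. Without leg TAL345, 31 members and 19.9% of all genes were called higher. With the animal as a block, so that each trained leg was set against its own contralateral leg, 5 members were called, namely Psma1, Psma4, Psmd8, Psmd11 and Psmd14, and 3.36% of all genes were called higher. The 10 macrophage markers summed to 289 CPM in TAL344 and 129 CPM in TAL345, against 41.6 to 200 CPM in contralateral legs, and their part in the result was not tested.

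**Figure D1:**
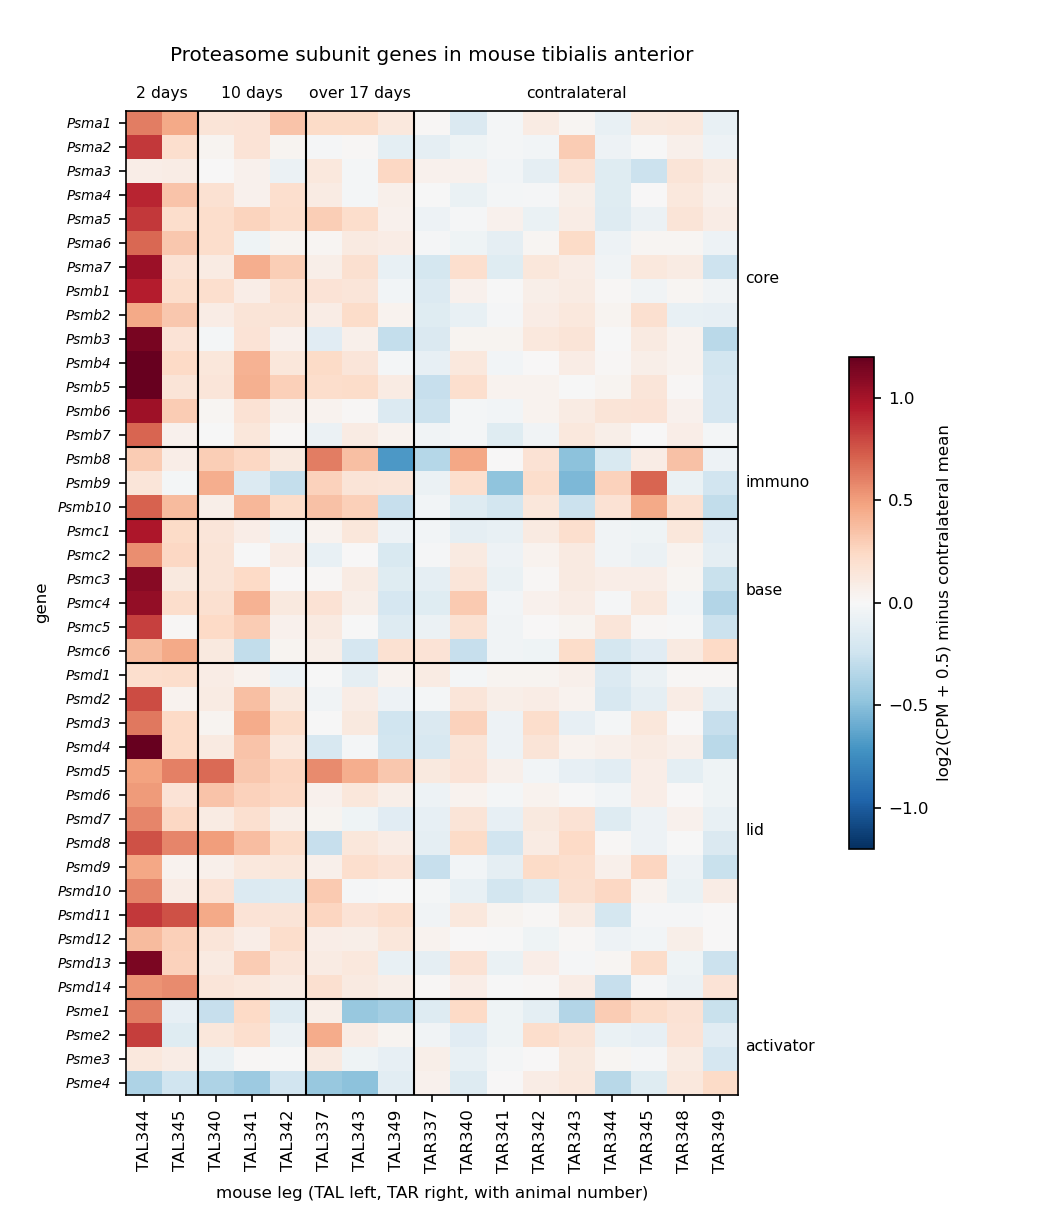
Difference of each proteasome gene (rows, grouped by class) from its contralateral mean, on the log2(CPM + 0.5) scale (colour), in each of the 17 mouse legs (columns). Leg TAL344 is high in nearly all core, base and lid genes, leg TAL345 is high in fewer, including Psmd11, Psmd14, Psmd8 and Psmc6, and Psme4 is below its contralateral mean in all 8 trained legs.

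The 2 mice trained for 2 days differed from each other in how far the members stood above their own right legs. In TAL344, the median log2 difference between left and right leg was 0.74, with 39 of 41 members higher on the left, and in TAL345 it was 0.14, with 33 of 41 higher on the left. Over all genes tested, the medians were 0.27 in TAL344 and 0.02 in TAL345. The core genes had a median of 0.92 in TAL344 and 0.19 in TAL345, yet all 14 were higher on the left in both mice. The base genes had medians of 0.845 and 0.18, and the lid genes 0.70 and 0.22. The summed level of the 41 genes was 4787 CPM in TAL344 and 3354 CPM in TAL345, against 2760 to 3126 CPM in the 9 contralateral legs. Both trained legs thus lay above every contralateral leg in the sum.

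**Figure D2:**
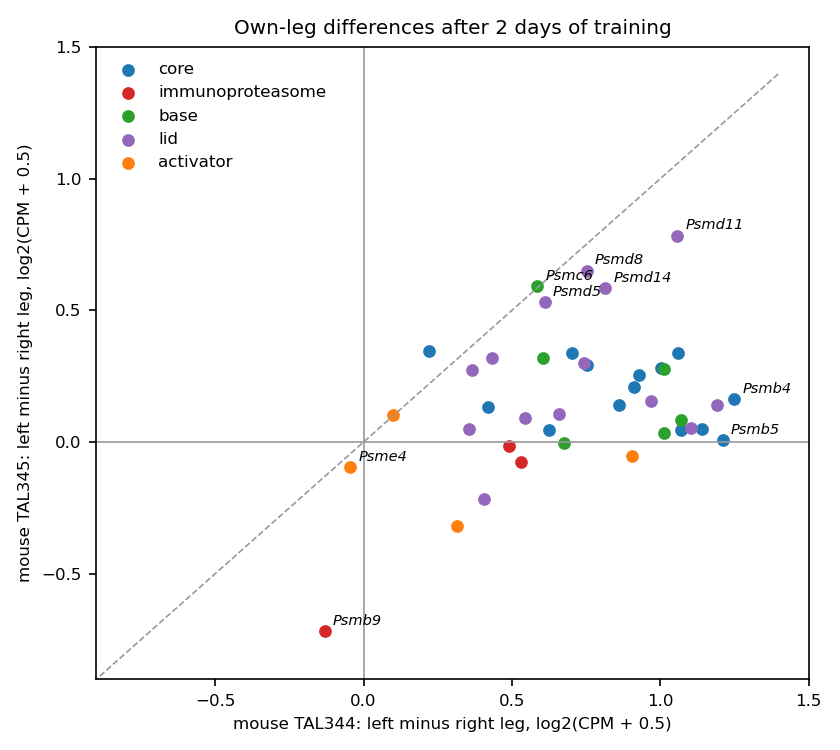
Left minus right leg difference of each of the 41 genes, on the log2(CPM + 0.5) scale, in mouse TAL345 (vertical axis) against mouse TAL344 (horizontal axis), coloured by class, with a dashed line of equality. Most points lie well below the line. Psmd11, Psmd14, Psmd8, Psmd5 and Psmc6 are the only genes with differences above 0.5 in both mice. Psmb5 stood at 1.21 in TAL344 and 0.01 in TAL345.

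The gap between the 2 mice varied with the composition of the transcripts. Across the 41 members, the difference between the own-leg changes of TAL344 and TAL345 correlated with GC content of the longest coding transcript at r = 0.59 and with the logarithm of its length at r = -0.53. Over the 12283 tested genes with a value, r was 0.35 and -0.24, and genes are not independent replicates. TAL344 also had the lowest share of mitochondrially encoded CPM of all mouse legs, 11.4%, against 19.0% in TAL345 and 13.4% to 23.6% in the contralateral legs. After removal of the part that followed GC content and length, an alternative chosen after seeing the data, 26 members and 9.87% of all genes with a value were called higher, and with the animal as a block as well 12 members and 5.99% of these genes. The part of RNA composition in the gap was not tested further.

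**Figure D3:**
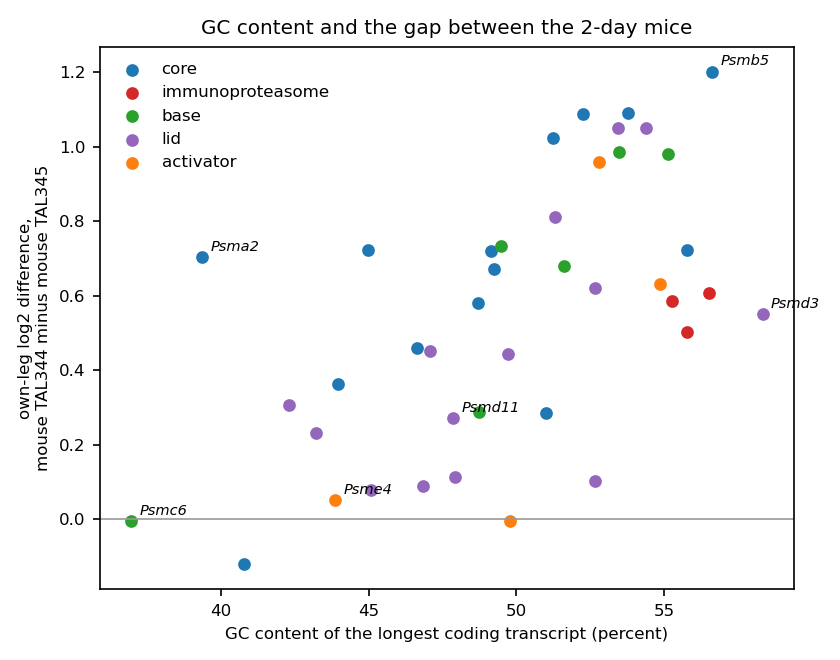
Difference between the own-leg log2 changes of mouse TAL344 and mouse TAL345 (vertical axis) against the GC content of the longest coding transcript in percent (horizontal axis) for the 41 genes, coloured by class. Psmc6, at 37.0% GC, stood near 0, while Psmb5, at 56.6%, had the widest gap.

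Among the lid genes, Psmd11 and Psmd14 rose in both mice to a like level. Psmd11, a scaffold subunit of the lid (GRCm39 chromosome 11, 80319441 to 80364075), stood at 114 CPM in TAL344 and 108 CPM in TAL345, and between 54.8 and 69.4 CPM (median 63.7) in the contralateral legs. The 2 trained legs lay well above all contralateral legs, with a log2 difference of 0.81 ± 0.10 (SE) and a limma adjusted p of 4.11e-05. Without TAL344 the difference was 0.77 with an adjusted p of 0.00353. Psmd14, the metalloprotease that cuts ubiquitin off the substrate (chromosome 2, 61542038 to 61630721), stood at 47.5 CPM in TAL344 and 48.4 CPM in TAL345, and between 26.8 and 36.4 CPM (median 32.8) in the contralateral legs. Again the groups did not overlap, with a log2 difference of 0.55 ± 0.10 (SE), a limma adjusted p of 0.00205, and one of 0.0381 without TAL344. These 2 genes alone kept their call in all 20 alternatives.

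Psmd8, another structural lid subunit, stood at 250.2 CPM in TAL344 and 222 CPM in TAL345, and between 125 and 174 CPM (median 147) in the contralateral legs. It rose by 0.68 ± 0.13 (limma log2 difference with SE, adjusted p = 0.00395), and both trained legs were above the contralateral range. Without TAL344 the log2 difference was 0.59, with an adjusted p of 0.146. Psmd5, a chaperone of base assembly, stood at 18.9 CPM in TAL344 and 20.6 CPM in TAL345, and between 12.2 and 15.1 CPM (median 13.1) in the contralateral legs. Its log2 difference was 0.55 ± 0.12 (SE, limma adjusted p = 0.00993), and 0.61 without TAL344, with an adjusted p of 0.0873. The ubiquitin receptor Psmd4 and the lid subunit Psmd13 followed another pattern. Psmd4 stood at 272 CPM in TAL344 and 135 CPM in TAL345, against 90.6 to 127 CPM (median 118) in contralateral legs, and Psmd13 at 106 and 58.3 CPM against 40.1 to 56.3 CPM (median 47.7). Their log2 differences of 0.75 and 0.70 were called, and without TAL344 they were 0.24 and 0.28 and not called. The other called lid genes, Psmd6, Psmd7 and Psmd12, had log2 differences between 0.33 and 0.41.

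In the core, the 2 trained legs were far apart for most beta subunits. Psmb5, the chymotrypsin-like catalytic subunit (chromosome 14, 54851576 to 54855480), stood at 139.7 CPM in TAL344 and 65.1 CPM in TAL345, and between 48.2 and 67.2 CPM (median 60.1) in the contralateral legs. TAL345 thus lay inside the contralateral range, and the called log2 difference of 0.70 ± 0.18 (SE, limma adjusted p = 0.0216) became 0.15 without TAL344. Psmb4, a structural beta subunit, stood at 171 CPM in TAL344 and 83.3 CPM in TAL345, against 60.4 to 77.1 CPM (median 71.5), with a log2 difference of 0.75 ± 0.17 (SE, limma adjusted p = 0.0105), and of 0.24 without TAL344. Psmb6, the caspase-like subunit (chromosome 11, 70416193 to 70418685), stood at 149 and 90.8 CPM, against 61.4 to 82.3 CPM (median 75.8), with a log2 difference of 0.66, and of 0.30 without TAL344. Both trained legs were above the contralateral range for Psmb4 and Psmb6, but the calls were lost without TAL344. Psmb7, the third catalytic subunit, was not called, at 232 and 149 CPM against 130 to 156 CPM (median 141), with a log2 difference of 0.37 and an adjusted p of 0.0541. Psmb3, Psma4 and Psma7, which are structural ring subunits, were called with log2 differences of 0.65, 0.63 and 0.60. The called core genes that are not named with levels here, Psma1, Psma2, Psma5, Psma6, Psmb1 and Psmb2, had log2 differences between 0.39 and 0.58, and Psma3 and Psmb7 were the 2 core genes without a call.

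The base ATPases, which unfold the substrate, had log2 differences of 0.405 or more in all 6 cases after 2 days, and 4 were called. Psmc4, Psmc3, Psmc1 and Psmc2 were called with log2 differences of 0.63, 0.60, 0.60 and 0.41 (limma adjusted p between 0.0119 and 0.0285), and none of these calls held without TAL344. Psmc3 stood at 327 CPM in TAL344 and 165 CPM in TAL345, against 127 to 168 CPM (median 155) in the contralateral legs. Psmc6 was high in both mice, at 77.9 and 82.5 CPM against 49.2 to 70.6 CPM (median 58.3), without a call in the main fit. It was called with the correction for GC content and length, which was added after seeing the data (log2 difference 0.57, limma adjusted p = 0.00085). With that correction Psmd1, Psmd2 and Psmd3 also gained a call, and Psmb2, Psmd6 and Psmd7 lost theirs.

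The immunoproteasome and activator genes showed no call after 2 days. Psmb8 stood at 5.66 and 4.76 CPM against 3.04 to 6.36 CPM, Psmb9 at 2.10 and 1.81 CPM against 1.12 to 3.29 CPM, and Psmb10 at 11.5 and 9.04 CPM against 5.46 to 9.54 CPM. Trained and contralateral legs overlapped in all 3, and the 95% intervals of the log2 differences ran from -0.37 to 0.75, from -0.49 to 0.62 and from 0.13 to 0.96. Within a library, the log2 ratio of Psmb8 to Psmb5 was lower by -0.51 ± 0.26 (SE, limma adjusted p = 0.205) after 2 days, that of Psmb9 to Psmb6 by -0.60 ± 0.25 (adjusted p = 0.126), and that of Psmb10 to Psmb7 was 0.17 ± 0.18 higher (adjusted p = 0.581). No such ratio was called in any of the 12 comparisons. Psme1 and Psme2, the 2 subunits of the interferon-inducible activator, had log2 differences of 0.26 and 0.34, and Psme3, the nuclear activator, one of 0.11, all without a call.

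After 10 days, limma called 2 of the 41 members higher and 0 lower, against 3.61% and 1.92% of all genes, and after more than 17 days 1 higher and 0 lower, against 6.3% and 2.48%. These shares lie near the background. The median log2 difference was 0.14 after 10 days (0.03 over all genes) and 0.05 after more than 17 days (0.05 over all genes). The summed level of the 41 genes was 3074 to 3263 CPM after 10 days and 2831 to 2963 CPM after more than 17 days, against 2760 to 3126 CPM in contralateral legs. The groups overlapped in this sum at both times.

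Psmd5 was the gene called at every time. It stood at 21.6, 16.8 and 16.1 CPM after 10 days in TAL340, TAL341 and TAL342, and at 19.95, 18.2 and 16.8 CPM after more than 17 days in TAL337, TAL343 and TAL349. All 8 trained mouse legs lay above the highest contralateral leg, at 15.1 CPM, and each was above its own right leg, by 0.26 to 0.61 on the log2 scale. The log2 difference was 0.42 ± 0.10 after 10 days (SE, limma adjusted p = 0.0222) and 0.44 ± 0.10 after more than 17 days (adjusted p = 0.0125). The first call was lost without TAL340 (adjusted p = 0.18) and with the animal as a block (adjusted p = 0.161), and the second without TAL337 (adjusted p = 0.0921). Psmd6, a lid subunit, was also called after 10 days, at 112, 106 and 105 CPM against 84.5 to 92.9 CPM (median 88.0), with a log2 difference of 0.29 ± 0.07 (SE, adjusted p = 0.0279). This call was lost in 7 of 21 alternatives, among them the fits without each of TAL340, TAL341 and TAL342 and that with the animal as a block, under which 0 members were called after 10 days.

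**Figure D4:**
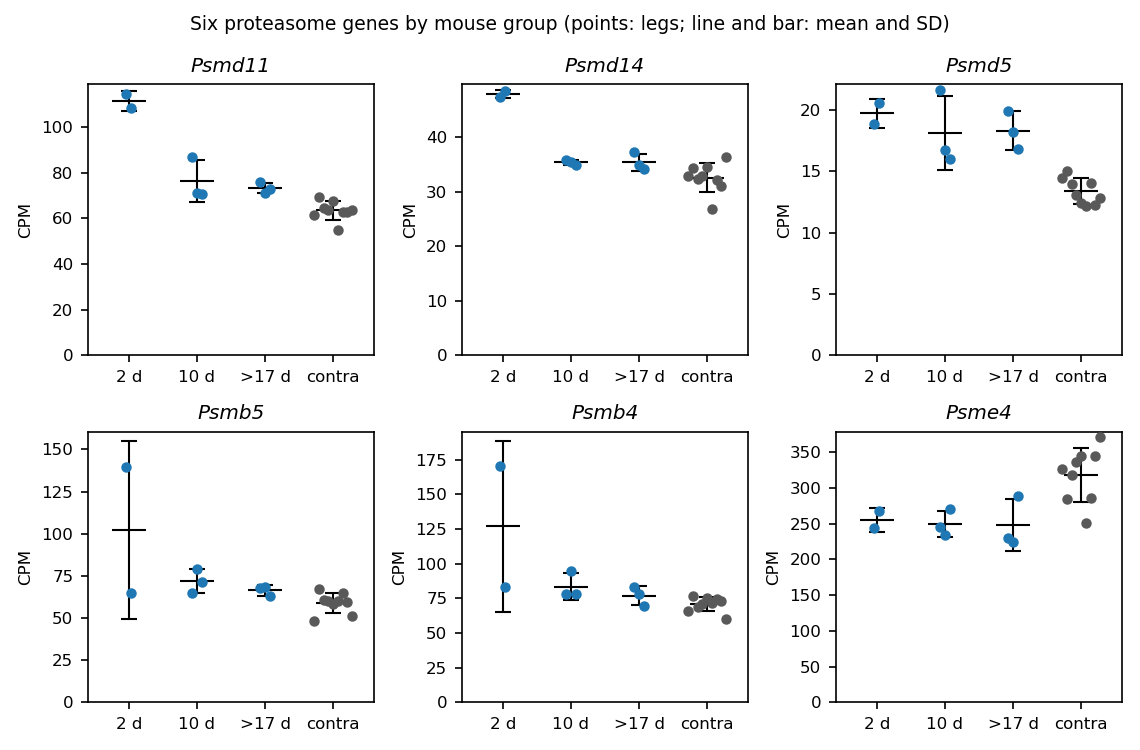
CPM of 6 proteasome genes (panels) in each mouse leg (points) by group (horizontal axis), with the group mean (line) and SD (bar). The 2-day legs stand together and above the rest for Psmd11 and Psmd14 and apart from each other for Psmb5 and Psmb4, all trained legs stand above the contralateral ones for Psmd5, and the Psme4 groups overlap, with the trained legs low.

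Psme4, the gene of the large activator that caps the core without ATP, was the member with the lowest log2 difference at all 3 times. It stood at 244 and 267 CPM after 2 days, at 245, 234 and 270.2 CPM after 10 days and at 230.3, 224 and 289 CPM after more than 17 days, against 251 to 371 CPM (median 327) in contralateral legs. Trained legs overlapped with the low end of the contralateral range, yet all 8 were below their own right leg, by -0.045 to -0.62 on the log2 scale. The log2 differences were -0.31 ± 0.13, -0.34 ± 0.11 and -0.36 ± 0.11 (SE), with limma adjusted p of 0.134, 0.0841 and 0.0514. With the animal as a block, Psme4 was called lower after more than 17 days, with a log2 difference of -0.49 and an adjusted p of 0.0137.

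The remaining members named by size were not called at the later times. After 10 days, the core genes with the widest log2 differences were Psmb5, Psma7 and Psmb4, at 0.29, 0.28 and 0.23. The base genes with the widest were Psmc4, Psmc5 and Psmc3, at 0.24, 0.20 and 0.14. After more than 17 days, Psma1, Psma5 and Psmb5 had 0.20, 0.18 and 0.18, and all base genes lay between -0.09 and 0.04. Among the activators, Psme1 had -0.07 after 10 days and -0.26 after more than 17 days, Psme2 had 0.09 and 0.19, and Psme3 had -0.03 and -0.01. The catalytic genes Psmb6 and Psmb7 had 0.09 and 0.04 after 10 days and -0.03 and 0.02 after more than 17 days. The immunoproteasome genes had log2 differences of -0.01 to 0.23 after 10 days and 0.09 to 0.19 after more than 17 days.

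Set against the 2-day legs directly, 2 proteasome genes were called lower at the last time and none at 10 days. After more than 17 days against 2 days, limma called 2 of the 41 members lower and 0 higher, against 0.476% and 0.11% of all genes. Psmd8 fell to 122, 162 and 156 CPM after more than 17 days, against 250.2 and 222 CPM after 2 days, with a log2 difference of -0.69 ± 0.15 (SE, adjusted p = 0.0495). Psmd11 fell to 75.8, 71.3 and 72.8 CPM, against 114 and 108 CPM, with a log2 difference of -0.60 ± 0.11 (SE, adjusted p = 0.0269). No leg of one group reached the range of the other in either gene, and 1541 of the 13647 genes tested lay wholly lower in this way. Both calls were lost with the animal as a block, where the quantity is a difference of own-leg changes. They were also lost without TAL344, where the log2 difference was -0.56 for Psmd11 and -0.61 for Psmd8. Of 14 alternatives, Psmd8 lost its call in 12 and Psmd11 in 7. The median log2 difference was -0.43 over the 41 members and -0.05 over all genes, and 31 members (75.6%) had an unadjusted p under 0.05, against 16.2% of all genes. After 10 days against 2 days, limma called 0 members, against 0.022% of all genes, while 20 (48.8%) had an unadjusted p under 0.05, against 11.6% of all genes, and the median was -0.32, against -0.08 over all genes. Without TAL345, 26 members and 13.0% of all genes were called lower after more than 17 days against 2 days, and 22 members and 10.1% of all genes after 10 days against 2 days. After more than 17 days against 10 days, 0 of the 41 members and 0 of all genes were called, with 2 members (4.88%) and 5.72% of all genes at an unadjusted p under 0.05 and a median of -0.10 over the members.

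In rats trained for 30 days, no proteasome gene was called. In 0 of the 6 comparisons did limma call a member, although it called 8.22% of the 10356 genes tested in daily against contralateral legs, 6.66% in every-3-days against contralateral legs, 8.14% in daily against sham legs and 4.25% in every-3-days against sham legs. In sham against contralateral legs 0.0% and in daily against every-3-days legs 0.0869% of all genes were called. The numbers of members with an unadjusted p under 0.05 were 3 in daily against contralateral, 2 in every-3-days against contralateral, 0 in sham against contralateral, 6 in daily against sham, 2 in every-3-days against sham and 1 in daily against every-3-days legs. Over all genes, the shares with an unadjusted p under 0.05 were 23.4%, 19.9%, 2.72%, 23.0%, 16.2% and 5.88% in the same order, above the members' shares of 7.32%, 4.88%, 0.0%, 14.6%, 4.88% and 2.44%. The median log2 differences over the 41 members were 0.03, -0.04, -0.05, 0.05, 0.01 and 0.12 in the same order, beside 0.06, 0.03, -0.04, 0.10, 0.07 and 0.03 over all genes. The 41 genes summed to 3937 and 4183 CPM in daily legs, 3794 to 4090 CPM in every-3-days legs, 3797 to 4105 CPM in sham legs and 3936 to 4486 CPM in contralateral legs.

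**Figure D5:**
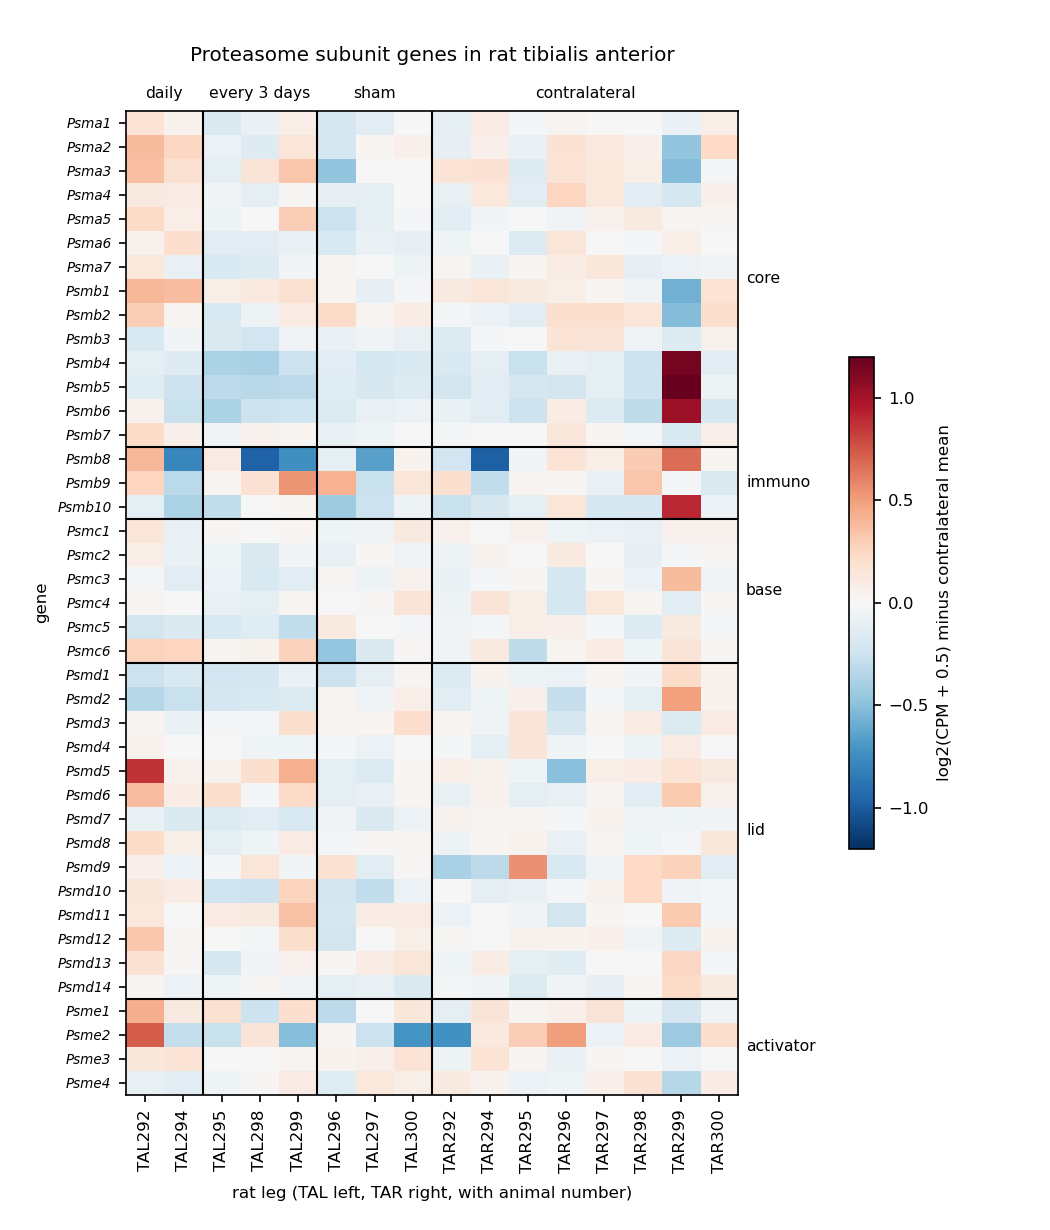
Difference of each proteasome gene (rows, grouped by class) from its contralateral mean, on the log2(CPM + 0.5) scale (colour), in each of the 16 rat legs (columns). The trained legs show no shared shift, Psmd5 is high in daily leg TAL292, and contralateral leg TAR299 stands apart in Psmb4, Psmb5, Psmb6 and Psmb10.

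The members nearest to a call in rats were core, base and chaperone genes of the daily group. Psmb1, a structural beta subunit, stood at 146 and 144 CPM in daily legs, 104 to 114 CPM in sham legs and 74.3 to 124 CPM (median 118) in contralateral legs. Daily legs lay above both control groups. This held for 1379 of the 10356 genes tested against contralateral legs and for 2918 against sham legs. The log2 difference against contralateral legs was 0.39 ± 0.15 (SE, limma adjusted p = 0.119). Without contralateral leg TAR299, which was lowest, the difference was 0.30 with an adjusted p of 0.0198. Psmc6 stood at 120.2 and 119 CPM in daily legs, against 101, 72.5 and 88.8 CPM in sham legs, with a log2 difference of 0.47 ± 0.15 (SE, limma adjusted p = 0.0707), and was called without sham leg TAL300 (adjusted p = 0.0331). Psmd5, called in all mouse groups, stood at 40.9 CPM in TAL292 and 22.9 CPM in TAL294, against 19.7 to 22.5 CPM in sham legs and 15.5 to 24.8 CPM (median 23.4) in contralateral legs. One of the 2 daily legs was therefore high, and the log2 difference against sham legs was 0.55 ± 0.22 (SE, limma adjusted p = 0.14).

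The other rat differences had no call either, and the 95% intervals of single members reached from -1.203 to 1.33 over the 5 comparisons with contralateral or sham legs. Against contralateral legs, the widest core differences were 0.32 for Psma2 and 0.27 for Psma3 in daily legs, next to Psmb1, and -0.34, -0.32 and -0.29 for Psmb4, Psmb5 and Psmb6 in every-3-days legs. The last 3 were -0.17, -0.15 and -0.14 without contralateral leg TAR299. Against sham legs, the daily group had 0.43 for Psma3, 0.41 for Psmb1 and 0.36 for Psma2, and the every-3-days group 0.29 for Psma3, 0.21 for Psma5 and -0.18 for Psmb6. Sham against contralateral legs, the widest core differences were -0.17 for Psmb4, -0.17 for Psmb5 and -0.16 for Psma3, and the first 2 were -0.01 and 0.00 without TAR299. The base ATPase Psmc5 lay lower in daily and every-3-days legs, by -0.20 and -0.21 against contralateral legs and by -0.23 in both groups against sham legs. The lid-class gene Psmd2, a scaffold of the regulatory particle, had -0.31 in daily and -0.18 in every-3-days legs against contralateral legs. Among the other base, lid and activator genes, daily legs had 0.26 for Psmc6, -0.08 for Psmc3, 0.46 for Psmd5 and 0.23 for Psmd6 against contralateral legs, and -0.08 for Psmc3, -0.33 for Psmd2, 0.31 for Psmd10, 0.54 for Psme2, 0.33 for Psme1 and -0.12 for Psme4 against sham legs. Every-3-days legs had 0.12 for Psmc6, -0.12 for Psmc3, 0.22 for Psmd5, 0.19 for Psmd11, -0.21 for Psme2, 0.05 for Psme1 and 0.02 for Psme4 against contralateral legs. Against sham legs the same group had 0.32 for Psmc6, -0.12 for Psmc3, 0.31 for Psmd5, -0.20 for Psmd2, 0.20 for Psmd11, 0.11 for Psme2, 0.11 for Psme1 and -0.08 for Psme3. Sham legs had -0.21 for Psmc6, 0.06 for Psmc4, -0.04 for Psmc2, -0.20 for Psmd10, -0.13 for Psmd14, -0.11 for Psmd1, 0.09 for Psme3 and -0.06 for Psme1 against contralateral legs. Psmd5, the base-assembly chaperone, was thus above both control groups on average in both trained rat groups, without a call.

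Psmd11, the member with the largest called difference from contralateral legs in mice, stood at 99.7 and 92.1 CPM in daily legs, 98.2, 99.0 and 117 CPM in every-3-days legs, 78.9 to 97.8 CPM in sham legs and 78.3 to 114 CPM in contralateral legs. Every-3-days legs lay above all sham legs, without a call, as held for 5 of the 41 members and 1612 of the 10356 genes tested. The other pairs of groups overlapped. Psmd14 lay between 46.2 and 61.2 CPM in all rat legs, and the sham group's widest member difference from contralateral legs was that of Psme2, at -0.32.

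Among the rat catalytic genes, Psmb7 lay between 172 and 204 CPM in trained legs, 165 and 176 CPM in sham legs and 155 and 193 CPM in contralateral legs. Psmb5 lay between 105 and 120.0 CPM in trained legs and 116 and 120 CPM in sham legs, with a contralateral median of 118 CPM. In contralateral leg TAR299, Psmb4, Psmb5 and Psmb6 stood at 291, 307 and 50.4 CPM, more than the 124, 127 and 26.1 CPM that were the highest in the other contralateral legs. Psmb8 lay between 1.62 and 5.01 CPM in trained legs, 2.16 and 3.79 CPM in sham legs and 1.61 and 6.16 CPM in contralateral legs. Psmb9 lay between 1.57 and 3.22, 1.65 and 2.96 and 1.61 and 2.76 CPM in the same groups, and Psmb10 between 5.52 and 7.51, 5.31 and 7.002 and 6.02 and 14.2 CPM. These groups overlapped in each immunoproteasome gene. In the activator class, Psme1, Psme2 and Psme3 had log2 differences of 0.27, 0.22 and 0.15 in daily against contralateral legs, and Psme4 lay between 399 and 467 CPM in trained legs, against 393 to 475 CPM in sham legs and 343.7 to 490.1 CPM in contralateral legs.

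Genes that work with the proteasome were examined in 6 lists, and after 2 days of training the assembly, deubiquitination and shuttle genes had calls in mice. Of the 6 assembly genes, 1 was called higher, Pomp, the maturation factor of the core, at 134 CPM in TAL344 and 51.2 CPM in TAL345 against 39.7 to 49.5 CPM (log2 difference 0.94 ± 0.21, SE, limma adjusted p = 0.0102). Both trained legs lay above the contralateral range, and without TAL344 the log2 difference was 0.25, with an adjusted p of 0.705. Of 9 associated genes tested, 3 were called, the deubiquitinases Usp14 (0.38) and Uchl5 (0.54) and the thioredoxin-like Txnl1 (0.36). Of 13 genes of the p97 segregase and its shuttles, 4 were called after 2 days, namely Ubxn4 (0.82), Sqstm1 (0.71), Ubxn1 (0.56) and Nploc4 (0.37). Beside these counts, 7.32% of all genes tested were called higher after 2 days. Sqstm1, the receptor that carries ubiquitin-tagged cargo to autophagy, stood at 654 and 779 CPM after 2 days, 487 to 643 CPM after 10 days and 451 to 507 CPM after more than 17 days, against 383 to 485 CPM in contralateral legs. It was also called after 10 days (log2 difference 0.41, limma adjusted p = 0.0245), and with the animal as a block that adjusted p was 0.233. Without TAL344 none of these 8 calls was kept. The log2 difference was then 0.38 for Usp14, 0.45 for Txnl1, 0.34 for Nploc4 and 0.58 for Sqstm1, and 0.16 for Uchl5, 0.26 for Ubxn1 and 0.42 for Ubxn4. Of 20 alternatives, Txnl1 lost its call in 14 and Usp14 in 11, among them fits without single contralateral legs. In rats no gene of these 3 lists was called in any comparison. Of the 6 ubiquitin and E1 genes, 0 were called in any comparison.

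The list of regulators of transcription was the one with calls in every trained group of both species. Like the others, it was chosen with earlier results of these data known. Mafk, a small Maf protein, stood at 54.7 and 78.1 CPM after 2 days, at 85.1, 103 and 178 CPM after 10 days and at 79.5, 81.9 and 153 CPM after more than 17 days, against 17.1 to 27.8 CPM in contralateral legs. In rats it stood at 142 and 101 CPM in daily legs and 177 to 208 CPM in every-3-days legs, against 30.4 to 34.6 CPM in sham legs and 33.1 to 50.3 CPM in contralateral legs. No trained leg overlapped with its controls in either species. Its log2 differences from contralateral legs were 1.49, 2.31 and 2.10 in mice and 1.60 and 2.25 in rats, and each call was kept in all alternatives.

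Maff, a second small Maf protein, was called after 10 days (1.54) and more than 17 days (1.83) in mice and in daily (3.88) and every-3-days rats (4.52) against contralateral legs. Nfe2l2, the oxidative stress factor that pairs with small Maf proteins, was called in all 3 mouse groups (0.51, 0.57 and 0.57), in every-3-days rats against contralateral legs (0.47) and in daily and every-3-days rats against sham legs (0.69 and 0.71). Without TAL344 the first of these was 0.21 (limma adjusted p = 0.841). With the animal as a block, the Nfe2l2 calls after 2 and 10 days and in rats were lost (adjusted p of 0.0522, 0.133, 0.125, 0.215 and 0.18). Mafg was called against sham legs in daily (0.65) and every-3-days rats (0.75), and both were lost with the animal as a block (limma adjusted p = 0.272 in each). Nfe2l1 itself was not called, and stood at 777 and 1030.1 CPM after 2 days, against 616 to 859 CPM in contralateral mouse legs. Of the 8 regulators tested, 2, 3 and 3 were called in mice after 2, 10 and more than 17 days, and 2, 3, 0, 4, 4 and 0 in the 6 rat comparisons in the order given above. Over all genes, 7.32%, 3.61% and 6.3% were called higher at these times in mice. The shares of all genes called in the 6 rat comparisons were 8.22%, 6.66%, 0.0%, 8.14%, 4.25% and 0.0869%. Mafk was higher in the 3 trained mouse groups, where 25, 2 and 1 members were called, and in both trained rat groups, where 0 were. A link between Mafk and the proteasome genes was not tested.

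Interferon and antigen presentation genes, with which the immunoproteasome is often induced, had 0 of 15 calls after 2 days. After 10 days, 2 of 15 were called higher, the class II chaperone Cd74 (1.36) and the transcription factor Irf8 (0.84), and after more than 17 days 2 of 15, B2m (0.57), the light chain of class I molecules, and Irf8 (0.69). Over all genes, 7.32%, 3.61% and 6.3% were called higher after 2, 10 and more than 17 days. The Cd74 call was lost in 13 of 21 alternatives, including each 10-day leg left out and the animal as a block (log2 difference 0.89, limma adjusted p = 0.205). The Irf8 call was lost after 10 days without TAL342, and those of Irf8 and B2m after more than 17 days without TAL337 and without TAL343. In rats 0 of the 14 tested were called in any comparison. Beside these counts, the macrophage markers summed to 121 to 266 CPM after 10 days and 68.7 to 727 CPM after more than 17 days, against 41.6 to 200 CPM in contralateral mouse legs. Of these markers, 2 were called after 2 days (Cd68 and Csf1r), 1 after 10 days and 1 after more than 17 days (Cd68 both times), none was at 0 in every leg of a group, and their part in the proteasome and interferon results was not tested. In rats the same markers summed to 68.4 to 78.6 CPM in daily, 39.7 to 126 CPM in every-3-days, 27.5 to 83.7 CPM in sham and 23.8 to 67.0 CPM in contralateral legs, with 0 of 10 called. Endothelial markers summed to 251 and 382 CPM after 2 days, against 339 to 547 CPM in contralateral mouse legs, with 1 of 8 called lower (Tek), beside 2.4% of all genes.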

How the data were processed

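RNA of 17 mouse and 16 rat tibialis anterior legs was sequenced. The authors deposited CPM per gene with 0.0001 added to each value, which was subtracted. STAR 2.7.8a, Partek and DESeq2 are listed in the submitters' processing notes without their roles, as are the builds mm10, GRCm39 and rn7. The build of the deposited mouse coordinates is not stated, and they were taken as GRCm39 because their starts differ from GRCm38. In mice the most abundant entry per symbol was kept (23 others dropped), and rat transcript models were summed per symbol.

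Genes with at least 1 CPM in at least 2 libraries (13647 in mice, 10356 in rats) entered limma 3.58.1 (R 4.3.3), which fitted all groups of a species together on log2(CPM + 0.5) with a mean-variance trend and 2-sided moderated tests. Adjusted p-values are Benjamini-Hochberg over all genes tested. Differences are on this log2 scale, which understates changes of low genes. P-values measure the spread between legs within groups, where each leg is labelled as a separate animal. The left and right legs of the same animal entered the main fit as if independent. Fits were tested on simulated data without an animal effect or a shift of a whole leg, so that test cannot speak to either. Among values worth at most 20 reads, 85.1% to 89.4% per library lay within 0.05 of a whole number of reads, too few for a count test, and depth is an estimate.

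The members and lists were chosen with earlier results of these data known. Named with values were the 3 catalytic and 3 immunoproteasome genes, the 4 activators, and per comparison and class up to 6 called members, or the 3 with the largest difference where none was called. Between trained groups, up to 6 called members are named. A few further members were named after their values were seen, such as Psmc6 in mice and Psmd14 in rats. From each list up to 4 called genes are named. Lengths and GC content are those of the longest coding transcript in GENCODE (mouse, all 41 members matched) and of the deposited models (rat). By the labels, equal numbers mark the left and right leg of 1 animal, which is the pairing used for the block. Their deviations from group means correlated at -0.03 to 0.30 in 8 mouse pairs and 0.04 to 0.26 in 8 rat pairs. Alternatives were other pseudocounts (0.1 and 1), no filter, median-of-ratios scaling, leaving out mitochondrially encoded genes, one model per rat symbol, the animal as a block, only the compared groups, each leg left out, and a correction for GC content and length added after seeing the data. Figures used matplotlib 3.10.9.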

Additional observations from a re-analysis of the deposited data

Results flagged for a closer look

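In the contralateral groups, 14 of 82 gene and group pairs (17.1%) had a highest or lowest leg whose gap to the next was wide for the group's range, where chance gives about 1 in 20. Of these, 9 were rat leg TAR299, the shallowest library. It was high for Psmb4 (291 CPM), Psmb5 (307 CPM), Psmb6 (50.4 CPM), Psmb10 (14.2 CPM), Psmc3 (199.99 CPM), Psmd2 (458 CPM), Psmd6 (119.9 CPM) and Psmd11 (114 CPM), and low for Psmb1 (74.3 CPM). The other rat values were Psmd10 in TAR298 (8.87 CPM, high), Psmd5 in TAR296 (15.5 CPM, low) and Psme3 in TAR294 (56.9 CPM, high). In mice, leg TAR343 was high for Psma2 (61.2 CPM) and Psma6 (97.01 CPM).

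The change relative to 2 days of training differed between times by the test of the difference itself for Psmd11 (-0.60) and Psmd8 (-0.69), which were lower after more than 17 days than after 2 days in limma's fit. The animal as a block ended both calls, and of 14 alternatives Psmd8 lost its call in 12 and Psmd11 in 7.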

How the results depend on the processing

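With the animal as a block, 5 members were called after 2 days (25 without it, with 3.36% and 7.32% of all genes called higher), 0 after 10 days (2 without), 2 after more than 17 days (1 without), 0 for more than 17 against 2 days (2 without), and no member count in rats changed. With GC content and length corrected, the counts for more than 17 days against contralateral, 10 against 2 days and more than 17 against 2 days were 2, 1 and 5, and with the animal as a block as well 12 after 2 days, 0 after 10 days, 2 after more than 17 days and 0 for more than 17 against 2 days. After 10 days 1 member was called with median-of-ratios scaling and 1 without mitochondrially encoded genes. For more than 17 against 2 days 1 was called with a pseudocount of 0.1, 1 without a filter, 0 without mitochondrially encoded genes and 0 with only the compared groups. The cause was not tested. Median-of-ratios scaling moved the median of all genes after 2 days to -0.003, and 20 members and 5.69% of all genes were called higher.

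Leaving out 1 leg at a time, the members called ranged from 2 to 31 after 2 days, 0 to 3 after 10 days, 0 to 2 after more than 17 days, 0 to 22 for 10 against 2 days, 0 to 26 for more than 17 against 2 days and 0 to 0 for more than 17 against 10 days. In rats the ranges were 0 to 1 for daily against contralateral and daily against sham, and 0 to 0 in the other 4 comparisons. Where 1 leg remained in a group, it was assumed to vary like the other groups. The daily calls were Psmb1 without TAR299, Psmd5 without TAL294 and Psmc6 without TAL300.

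With Psmd1, Psmd2 and Psmd4 moved to the base and the chaperones apart, the lid median was -0.47 for more than 17 against 2 days and -0.15 for more than 17 against 10 days. The ratio of Psmb8 to Psmb5 in daily against contralateral rats, 0.01, was -0.0217 with a pseudocount of 0.1. Groups of 2 and 3 legs and the depth of TAR299 limit these comparisons.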
